A study of Mus musculus with 6 samples.

Results

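The enzymes that make, recycle and clear deoxynucleotides were compared between Nup98::Nsd1 and mock-transduced 32D cells at the RNA level. The members were 9 genes, Rrm1, Rrm2, Rrm2b, Tyms, Tk1, Dck, Dut, Dctd and Samhd1. Every probe set of the Affymetrix Mouse Genome 430 2.0 array that the platform annotation gives to 1 of these symbols alone was taken, which made 9 of 18193 genes with a symbol of their own and 26 of 45101 probe sets. Probe sets were assigned to the members by symbol and not by signal, and the 9 genes themselves were chosen with earlier results of these data known.

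32D is an interleukin-3-dependent line of myeloid progenitors from the bone marrow of a C3H/HeJ mouse infected with Friend leukemia virus. The 3 mock samples were transduced with the retroviral vector MSCVpuro and the 3 Nup98::Nsd1 samples with the fusion gene of that name, which is found in acute myeloid leukaemia. All 6 samples share the line, its strain and the viral origin. Whether a group is a clone or a pool of transduced cells, the culture conditions and the time after transduction are, in the sources used here, not stated. Separate cultures are named in no label, so the p-values rest on the spread among these arrays alone, and that spread may be technical.

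DNA replication consumes the deoxynucleoside triphosphates dATP, dGTP, dCTP and dTTP, and cells hold only a small pool of each. Ribonucleotide reductase makes deoxynucleotides from ribonucleotides, thymidylate synthase makes the thymine nucleotide, kinases salvage deoxynucleosides taken up from outside, and a few enzymes break down unwanted products. Many of these genes are transcribed mainly as cells enter S phase, whereas Rrm2b serves DNA repair and mitochondrial DNA in cells outside S phase and is a target of p53.

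The number of arrays limits the precision. The share of probe sets with a Present call was 45.1% to 45.9% on mock and 47.6% to 48.2% on Nup98::Nsd1 arrays. The 3' signal over the 5' signal of control probe sets reads out how intact the labelled RNA was. For Actb it came to 1.15 to 1.2 on mock and 1.45 to 1.5 on Nup98::Nsd1 arrays. For Gapdh it came to 0.742 to 0.77 on mock and 0.799 to 0.843 on Nup98::Nsd1 arrays. The part of RNA integrity in the results was not tested. Of 10 myeloid progenitor markers 8 were Present on all 6 arrays, among them Mpo, Prtn3 and Ctsg. The summed signal of all 10 lay between 62911 and 66881 in mock and between 38734 and 39563 in Nup98::Nsd1 samples. Gene by gene, 5 of the 10 were lower and 4 higher, so the sum does not stand for the direction of each marker. Cd3e, Cd3d and Cd3g of T cells, Cd79a and Pax5 of B cells and Col1a2, Pdgfra and Dcn of fibroblasts were Present on no array. Other markers of such lists were detected: Cd79b of B cells and Epor of erythroid cells were Present on all 6 arrays, while the erythroid Slc4a1 was Present on none. Megakaryocyte markers (4 of 5 measured) summed to 3473 to 3659 in mock and 9285 to 9699 in Nup98::Nsd1 samples. The part of any of these marker lists in the results was not tested. In such bulk samples, fewer cells of a type and less RNA per cell cannot be told apart.

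Of the 26 probe sets, 21 met the condition for testing, a Present call on each of the 3 arrays of mock or of Nup98::Nsd1 cells. Of these, 12 were lower in Nup98::Nsd1 cells, 7 were higher and 2 did not pass an adjusted p of 0.05 in limma. Among the higher, the Rrm2b probe set 1437222_x_at met the condition only through the Nup98::Nsd1 arrays. Among all 20494 tested probe sets 27.6% were lower and 42.3% higher, and the middle of their log2 fold changes lay at 0.15. With 1 probe set a gene, the brightest tested, 6 of 9 members were lower and 3 higher, against 29.5% and 42.9% of 9641 tested genes. The median log2 fold change was -0.78 over the members and 0.12 over all tested genes. The groups did not overlap at 19 of the 21 member probe sets, against 73.2% of all tested. The 6 genes that fell were Rrm1, Rrm2, Tk1, Dck, Dut and Dctd, and Rrm2b, Tyms and Samhd1 made up the others. All signals below are MAS5 signals, intensities that the authors scaled to a common mean. They are compared between arrays and not between genes, except that a ratio of the Rrm2 and Rrm2b signals is formed within arrays and then compared between groups.

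**Figure D1:**
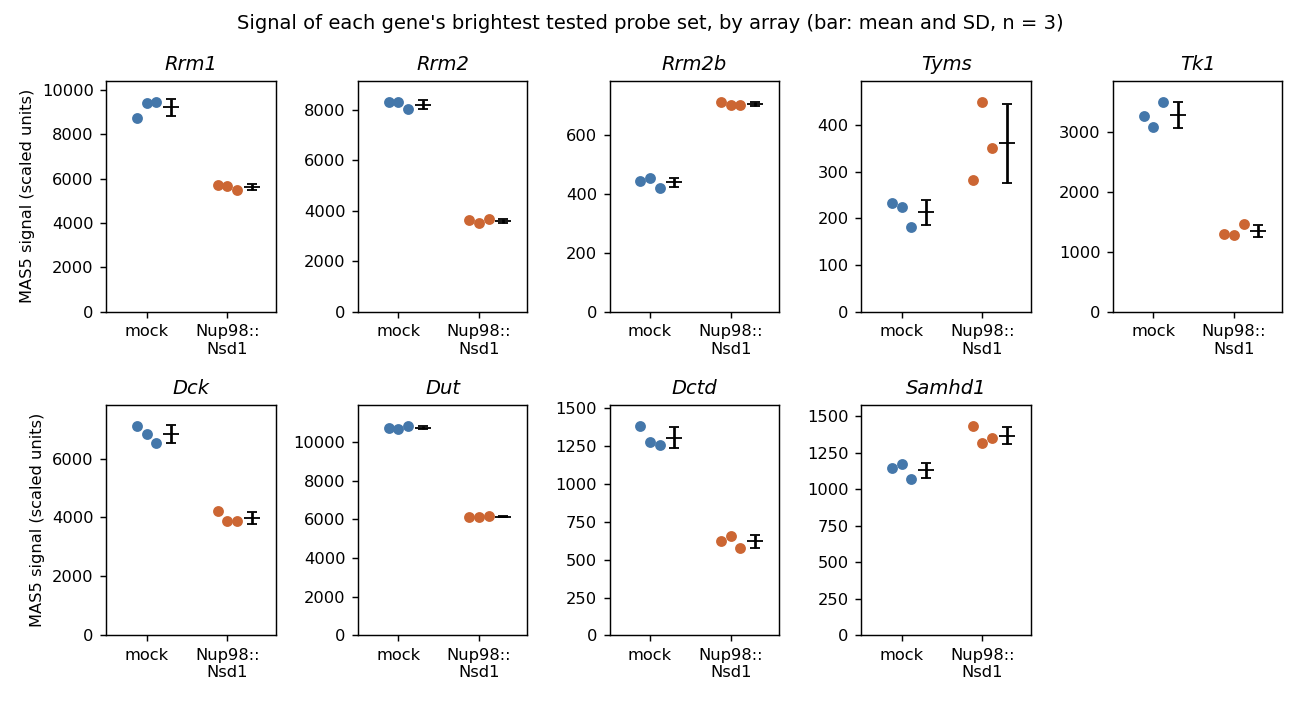
MAS5 signal (scaled units, linear axis from 0) of the brightest tested probe set of each of the 9 genes, with 1 point per array, 3 mock in blue and 3 Nup98::Nsd1 in orange, and black bars for the mean and SD. The groups do not overlap in any panel, as was the case for 75.1% of all 9641 tested genes. Rrm1, Rrm2, Tk1, Dck, Dut and Dctd are lower in Nup98::Nsd1 cells.

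Ribonucleotide reductase is built from the large catalytic subunit Rrm1 and a small subunit that carries the tyrosyl radical, either Rrm2 or Rrm2b. Rrm1 and Rrm2 fell while Rrm2b rose. The 250 bases before the RefSeq start of Rrm1 and of Rrm2 (GRCm38.p6) are shown because these genes fell together and their windows hold letters of an E2F core or a CCAAT box, promoter elements known from genes of S phase. Capitals mark the matches on either strand. The box was searched as CCAAT, and the E2F core was spelled TTCCCGC or, with other middle letters, TTCGCGC and likewise TTGGCGC and also TTGCCGC.
Rrm1 at chr7:102441445-102441694 on the plus strand: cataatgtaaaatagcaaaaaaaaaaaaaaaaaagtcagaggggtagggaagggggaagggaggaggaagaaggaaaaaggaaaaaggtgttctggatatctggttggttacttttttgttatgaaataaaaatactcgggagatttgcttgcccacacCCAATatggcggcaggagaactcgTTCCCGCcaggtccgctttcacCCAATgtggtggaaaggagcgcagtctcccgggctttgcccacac
Rrm2 at chr12:24708004-24708253 on the plus strand: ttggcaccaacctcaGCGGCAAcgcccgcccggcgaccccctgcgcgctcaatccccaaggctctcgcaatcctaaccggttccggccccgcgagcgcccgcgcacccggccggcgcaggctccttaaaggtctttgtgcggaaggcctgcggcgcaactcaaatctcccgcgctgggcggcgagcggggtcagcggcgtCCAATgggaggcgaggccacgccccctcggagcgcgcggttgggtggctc
The Rrm1 window holds an E2F core that begins 67 bases before the start and CCAAT boxes at 91 and 45 bases. In the Rrm2 window the E2F core begins 235 bases and the CCAAT box 50 bases before the start. No E2F core overlapped a CCAAT box. Such windows were listed for 8 of the 9 members, 10 windows in all, of which 2 held an E2F core and 4 a CCAAT box. By gene that was 2 members and 3 members, as overlapping windows of Dctd held the same CCAAT box. The listed windows of Tk1, Dck, Dut and Dctd, which also fell, held no E2F core. For Tyms, Tk1 and Dut the listed window did not end at the RefSeq start of the gene. Nor did the Dctd windows that held the CCAAT box. The Dctd window that did end there held neither an E2F core nor a CCAAT box. Over all 32851 windows of the same length, 7.89% held an E2F core and 33.8% a CCAAT box. A match describes letters in a window and is not a binding site.

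Rrm2, the small subunit made for S phase, was lower at all 3 of its probe sets. Its brightest probe set, 1434437_x_at, read 8318, 8304 and 8030 on the mock arrays and 3635, 3505 and 3672 on the Nup98::Nsd1 arrays. Each Nup98::Nsd1 array lay below the lowest mock array, and the means were 8217 ± 162.5 and 3604 ± 87.8 (SD, n = 3 each), or 2.28-fold lower. The log2 fold change was -1.19 (SE 0.0399, limma adjusted p = 7.82e-10). Probe set 1448226_at went from 5867, 5811 and 5757 to 1901, 1754 and 1923, a log2 fold change of -1.65 (adjusted p = 2.39e-10). Probe set 1416120_at went from 4131, 4101 and 4560 to 1124, 981 and 1128, a log2 fold change of -1.99 (adjusted p = 6.62e-10). The size of the fall thus ran from 2.28-fold to 3.96-fold between probe sets of the same gene, all in 1 direction. An x_at probe set can hold probes that match transcripts of other genes.

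Rrm1, the large subunit, is needed with either small subunit. Its probe set 1415878_at read 8760, 9441 and 9464 in mock and 5705, 5683 and 5479 in Nup98::Nsd1 samples, 1.64-fold lower (log2 fold change -0.71, SE 0.0435, adjusted p = 5.84e-08). Probe set 1448127_at, listed under the same sequence accession, read 9837, 10294 and 10961 against 4297, 4000 and 4142, 2.50-fold lower (log2 fold change -1.32, SE 0.0485, adjusted p = 1.34e-09). At both, every mock array was above every Nup98::Nsd1 array. A dim Rrm1 probe set, 1440073_at, went the other way, from 94.45, 86.5 and 77.4 to 125, 138 and 113. Its log2 fold change of 0.54 passed as deposited (adjusted p = 0.0226), but not under any of the 4 other scalings, with values from 0.11 to 0.37, nor without a detection filter. It also did not pass without mock replicate 3 (adjusted p = 0.0671), Nup98::Nsd1 replicate 1 (adjusted p = 0.055) or Nup98::Nsd1 replicate 2 (adjusted p = 0.0838).

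Rrm2b, the p53-inducible small subunit, had 4 probe sets, of which 3 rose, among them 1437222_x_at, which was tested only through the Nup98::Nsd1 arrays. The brightest, 1433773_at, read 443, 451 and 420.5 (mean 438 ± 15.96) in mock and 710, 699 and 701 (mean 704 ± 5.71) in Nup98::Nsd1 samples, 1.61-fold higher (log2 fold change 0.68, SE 0.0728, adjusted p = 5.93e-06). It stayed past the threshold under the 4 other scalings, with log2 fold changes from 0.28 to 0.51. Probe set 1437476_at rose from 265, 235 and 297 to 353, 394 and 348 as deposited (log2 fold change 0.46, adjusted p = 0.00386) and did not pass with quantile normalization (0.20), 75th percentile centring (0.27) or hybridization control scaling (0.06). The dim 1437222_x_at, Present on 2 mock arrays, went from 39.7, 35.9 and 28.6 to 60.2, 101 and 73.1 (log2 fold change 1.15, adjusted p = 0.00482). It passed under the 4 other scalings with values from 0.75 to 0.98. As it entered the test only through the group in which it was high, its calls are a description. At 1437221_at the groups overlapped, with 35.1 to 48.4 in mock and 45.1 to 55.5 in Nup98::Nsd1 samples (adjusted p = 0.504).

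The opposite movement of the small subunits was compared within each array, where scaling by a constant cancels. The log2 Rrm2 signal minus the log2 Rrm2b signal, at the brightest probe set of each, was 4.23, 4.20 and 4.26 on the mock arrays and 2.36, 2.32 and 2.39 on the Nup98::Nsd1 arrays. The SD within a group was 0.0267 in mock and 0.0318 in Nup98::Nsd1 samples, and the groups differed by -1.87, a 3.66-fold lower ratio in Nup98::Nsd1 cells. An exact two-sided permutation test over the 20 assignments of arrays gave p = 0.1, the smallest that 3 against 3 allow. Both probe sets had already separated the groups, in opposite directions, so this p was fixed beforehand and adds no support. The ratio shows unequal change of the probe sets and not the amount of each subunit.

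Thymidylate synthase, Tyms, methylates dUMP to dTMP and is the target of 5-fluorouracil. Its probe sets gave no common direction. Probe set 1438690_at read 232, 225 and 182 in mock and 282, 450 and 352 in Nup98::Nsd1 samples, 1.68-fold higher (log2 fold change 0.75, SE 0.168, adjusted p = 0.00193), and did not pass with hybridization control scaling (0.35, adjusted p = 0.0928). The Nup98::Nsd1 arrays spread from 282 to 450, the widest relative spread among the brightest probe sets of the 9 genes. Probe set 1442192_at read 191, 157 and 181 against 164, 197 and 188, with overlapping groups (log2 fold change 0.05, adjusted p = 0.753). Probe sets 1427810_at and 1427811_at were Present on no array, with signals of 26.9 to 71.1 and 2.27 to 20.5. A brighter probe set, 1424991_s_at, is annotated jointly to Tyms and the pseudogene Tyms-ps and is therefore no member. It was looked at after the Tyms values were known, read 3541, 3804 and 3842 in mock and 2836, 2801 and 3029 in Nup98::Nsd1 samples, and was lower (log2 fold change -0.37, SE 0.0496, adjusted p = 4.04e-05). The count of Tyms among the higher genes thus rests on 1438690_at alone.

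Dctd and Dut feed the same step. Dctd deaminates dCMP to dUMP, the substrate of Tyms, and Dut hydrolyses dUTP to dUMP, which also keeps uracil out of DNA. The Dctd probe set 1454659_at read 1384, 1275 and 1253 in mock and 624, 657 and 578 in Nup98::Nsd1 samples, 2.10-fold lower (log2 fold change -1.07, SE 0.0701, adjusted p = 9.87e-08). Dut had the smallest SE of the member probe sets at 1419270_a_at, with 10745, 10664 and 10845 in mock and 6123, 6137 and 6159 in Nup98::Nsd1 samples. That was 1.75-fold lower (log2 fold change -0.81, SE 0.0359, adjusted p = 5.37e-09). The dimmer Dut probe set 1419269_at, from the same accession, fell from 520, 538 and 519 to 311, 363 and 381 (log2 fold change -0.59, adjusted p = 0.000202). At all 3 of these probe sets each mock array was above each Nup98::Nsd1 array.

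The salvage kinases Tk1 and Dck both fell. Tk1 phosphorylates thymidine in the cytosol and is made and degraded with the cell cycle. Its only probe set, 1416258_at, read 3266, 3077 and 3499 in mock and 1299, 1276 and 1470 in Nup98::Nsd1 samples, 2.43-fold lower (log2 fold change -1.28, SE 0.0658, adjusted p = 1.5e-08). Dck phosphorylates deoxycytidine, deoxyadenosine and deoxyguanosine, and also activates the leukaemia drug cytarabine. At its brightest probe set, 1439012_a_at, signals of 7113, 6845 and 6523 in mock stood against 4221, 3872 and 3873 in Nup98::Nsd1 samples, 1.71-fold lower (log2 fold change -0.78, SE 0.0493, adjusted p = 8.07e-08). The fall was deeper at 1449176_a_at, from 3718, 3683 and 3193 to 1273, 1445 and 898 (log2 fold change -1.58, adjusted p = 1.04e-06). It was deepest at 1428838_a_at, from 1609, 1562 and 1525 to 431, 366 and 493 (log2 fold change -1.88, adjusted p = 1.45e-08). Between its probe sets, Dck therefore ranged from 1.71-fold to 3.67-fold lower. In the naming of this array, a_at marks probe sets for several transcripts of 1 gene.

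Samhd1 works against the others: it cleaves deoxynucleoside triphosphates back to deoxynucleosides, and it is known as an interferon-responsive gene and as an enzyme that inactivates the triphosphate of cytarabine. Its probe set 1418131_at read 1144, 1176 and 1070 in mock and 1436, 1318 and 1352 in Nup98::Nsd1 samples, 1.21-fold higher as deposited (log2 fold change 0.28, SE 0.0595, adjusted p = 0.00139). Probe set 1434438_at read 1051, 983 and 1091 against 1272, 1123 and 1308 (log2 fold change 0.24, adjusted p = 0.00897). The groups did not overlap at either, but both differences were close to the middle of all tested probe sets, 0.15. At 1418131_at the value was 0.24 with quantile normalization (adjusted p = 0.00378), 0.08 with 75th percentile centring (adjusted p = 0.251), 0.11 with median centring (adjusted p = 0.129) and -0.12 with hybridization control scaling (adjusted p = 0.151). The direction of Samhd1 therefore depended on the scaling. Its other 3 probe sets were not tested. Probe set 1420272_at had 76.7 to 107 in mock and 68.3 to 137 in Nup98::Nsd1 samples, and 1420273_x_at 53.6 to 86.4 and 102 to 199. At 1444064_at, Present on no array, signals were 7.97 to 34.6 in mock and 75.8 to 125 in Nup98::Nsd1 samples.

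**Figure D2:**
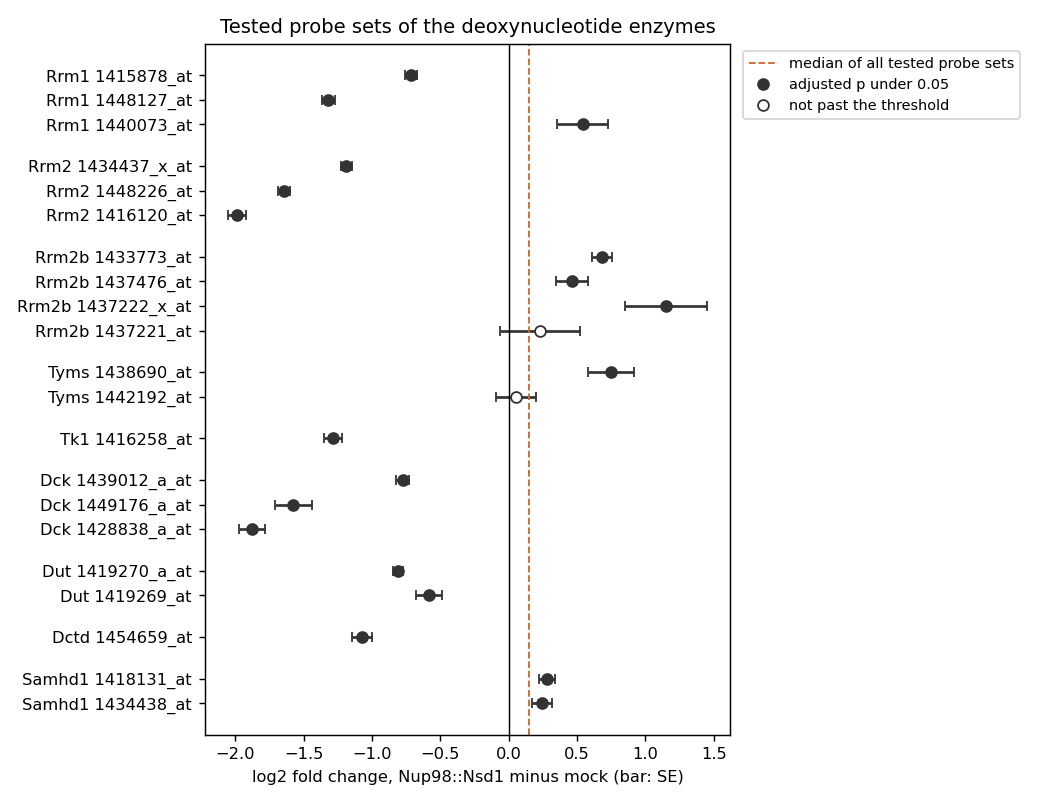
Log2 fold change (Nup98::Nsd1 minus mock, n = 3 arrays each) of the 21 tested member probe sets, with bars for the SE and filled points for an adjusted p under 0.05. The 12 lower probe sets lie between -1.99 and -0.59, and the dashed line at 0.15 is the median of all tested probe sets.

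Probe sets of the same gene differed in the size of change by up to 1.86 on the log2 scale for Rrm1, whose dim probe set went the other way, 1.100 for Dck, 0.92 for Rrm2b and 0.80 for Rrm2. They differed by 0.22 for Dut and 0.03 for Samhd1. As deposited, at least 2-fold falls were seen at 8 of the 21 tested probe sets, against 3.13% of all tested, and at 3 of the 9 genes, namely Rrm2, Tk1 and Dctd, against 2.6%. By brightest probe set, Rrm1, Dck and Dut fell less than 2-fold.

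Scaling bears on these values, since the middle of all tested log2 fold changes, 0.15 as deposited, moved to -0.009 after quantile normalization and to -0.25 when arrays were scaled on the hybridization controls. Centring arrays on their 75th percentile put it at -0.04, and centring them on the median put it at -0.02. Relative to the deposited middle of 0.15, the brightest probe sets stood at -1.44 for Tk1, -1.34 for Rrm2, -1.23 for Dctd, -0.96 for Dut, -0.93 for Dck and -0.86 for Rrm1. Rrm2b stood at 0.53, Tyms at 0.59 and Samhd1 at 0.13 above it. The same 6 genes were called lower under each of these scalings. Of the other members, Rrm2b was called higher under each, Tyms under all but hybridization control scaling, and Samhd1 as deposited and with quantile normalization only.

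**Figure D3:**
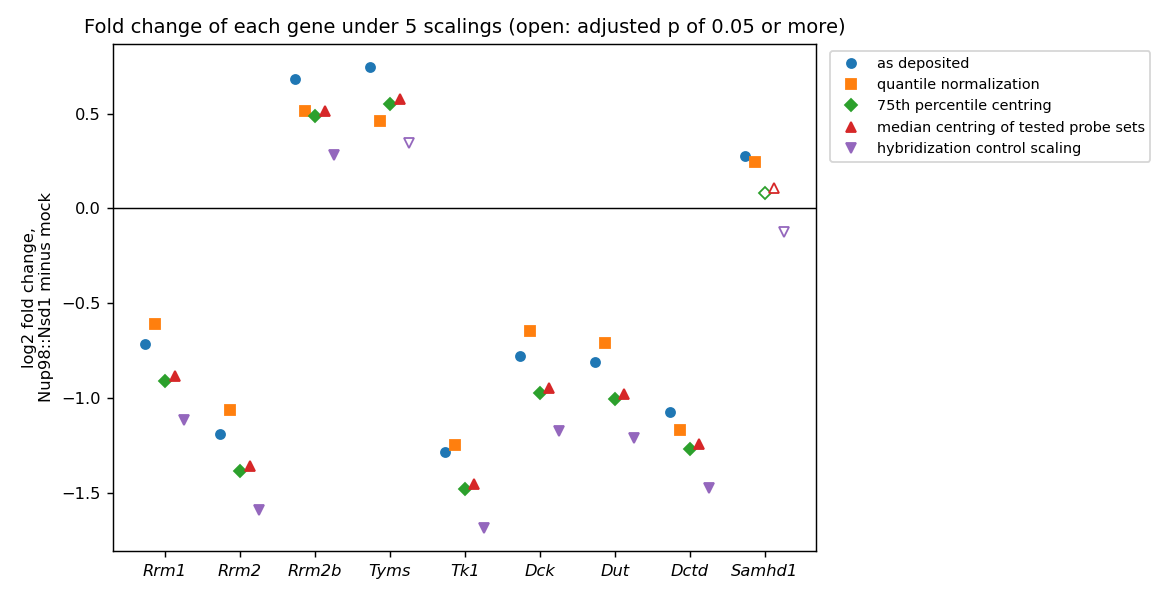
Log2 fold change (Nup98::Nsd1 minus mock) of the 9 genes under 5 scalings, where open symbols have an adjusted p of 0.05 or more. Rrm1, Rrm2, Tk1, Dck, Dut and Dctd stay below -0.60 throughout, while Samhd1 runs from 0.28 to -0.12.

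The rest of nucleotide metabolism was described by lists of genes, each gene at its brightest tested probe set, with 125 of 141 listed genes tested. Each count is to be read against the share called among all tested genes, which was 42.9% higher and 29.5% lower as deposited. Centring on the 75th percentile made it 30.3% and 40.9%, while scaling to the hybridization controls made it 20.1% and 53.4%. Of 23 tested deoxynucleoside kinases and salvage or breakdown genes, 14 were lower and 7 higher as deposited (median -0.18, against 0.12 for all tested genes), against 14 and 4 once arrays were centred on the 75th percentile, while the hybridization control scaling gave 16 and 3. Ada, adenosine deaminase, was 2.66-fold lower (1852 ± 20.1 to 697 ± 32.2) and Nme1, a nucleoside diphosphate kinase, 2.18-fold lower at the brighter of its probe sets, while the other stood at 0.44. Upp1, uridine phosphorylase, was 5.87-fold higher (333 ± 42.3 to 1944 ± 73.0). Slc29a2, among the lower, was Present on no Nup98::Nsd1 array at its brightest probe set. It was thus tested only through the mock arrays, the group in which it was high. Of the 22 genes tested when a Present call on all 6 arrays was required, 13 were lower and 7 higher. Among all genes so tested, 31.1% were lower and 42.9% higher. The mitochondrial salvage kinases Tk2 and Dguok, counterparts of Tk1 and Dck, stood at log2 fold changes of 0.57 (adjusted p = 0.00667) and 0.36 (adjusted p = 0.00545) as deposited. With hybridization control scaling they stood at 0.18 and -0.04, Dguok passed under none of the 4 other scalings, and Tk2 passed only with median centring. Both are named here after their values were seen.

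The folate cycle supplies Tyms with its methyl donor. Of 7 tested genes of it, 4 were lower and 2 higher: Mthfd1, its trifunctional cytosolic enzyme, was 2.22-fold lower, and the mitochondrial Shmt2 and Mthfd2 were 1.66-fold and 1.58-fold higher. Purine ribonucleotide synthesis provides a substrate of ribonucleotide reductase, and 12 of its 14 tested genes were lower and 1 higher (median -0.63). Ppat, which opens the pathway, was 2.23-fold lower, Gart 2.11-fold and the salvage enzyme Hprt 1.90-fold lower. For pyrimidine ribonucleotides 4 of 8 tested genes were lower and 3 higher (median -0.12). Cad, which opens that pathway, was 1.39-fold lower and Ctps2, a CTP synthase, 1.88-fold higher. Ctps, also a CTP synthase, was 1.25-fold lower and is named here after its values were seen. Uck2 was 1.49-fold higher at its brightest probe set, but its 5 probe sets ran from -0.91 to 0.58 and their mean did not pass (-0.05, adjusted p = 0.429).

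Genes of the replication fork and S phase, transcribed at the time when Rrm2 and Tk1 are, were mostly lower too: 22 of 24 tested were lower and 1 higher (median -0.88). Slbp, which binds histone mRNA, was 2.43-fold lower with its other probe set at 0.12, and of the replicative helicase Mcm4 was 2.80-fold and Mcm6 2.36-fold lower. Of 14 mitotic genes 11 were higher and 2 lower as deposited, against 6 and 3 once arrays were centred on the 75th percentile, while the hybridization control scaling gave 5 and 8, where the share of all tested genes called lower was 53.4%. As deposited Mki67 was 2.15-fold higher, Cenpe 1.81-fold higher and Aurkb 1.58-fold lower. The part of cell cycle composition in the members' values was not tested.

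Of the known regulators of the members, 7 of 15 tested were lower and 4 higher as deposited, against 29.5% and 42.9% of all tested genes. Centring on the 75th percentile gave 11 and 2, while the hybridization control scaling gave 12 and 1. The repressor E2f6 was 1.72-fold lower, the checkpoint kinase Chek1 1.79-fold lower at the brightest of 4 probe sets that ran from -1.37 to 0.0018, and E2f5 2.38-fold higher. Of the p53 targets, the group to which Rrm2b belongs, 7 of 11 tested were higher and 2 lower as deposited, against 42.9% and 29.5% of all tested genes, which became 5 and 4 with hybridization control scaling, against 20.1% and 53.4%. Sesn2, among the higher, was Present on no mock array at its brightest probe set. Gadd45a, Bbc3 and Trp53inp1 were 3.87-fold, 4.48-fold and 2.00-fold higher. Of 13 listed interferon-stimulated genes, among which Samhd1 is known, 11 were measured and 9 tested. Oas1a and Ifit1 were Present on no mock array and Rsad2 on 1, so these 3 were tested only because of the group in which they were high, and the count over tested genes is a description. Of the 6 tested when a Present call on all 6 arrays was required, 6 were higher, against 42.9% of all genes so tested, and of the 11 tested without a detection filter 9 were higher, against 23.1%. Ifi27 and Bst2 were 2.49-fold and 1.88-fold higher, and Oas1a went from 75.7 ± 15.8, Present on no mock array, to 853 ± 33.3.

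**Figure D4:**
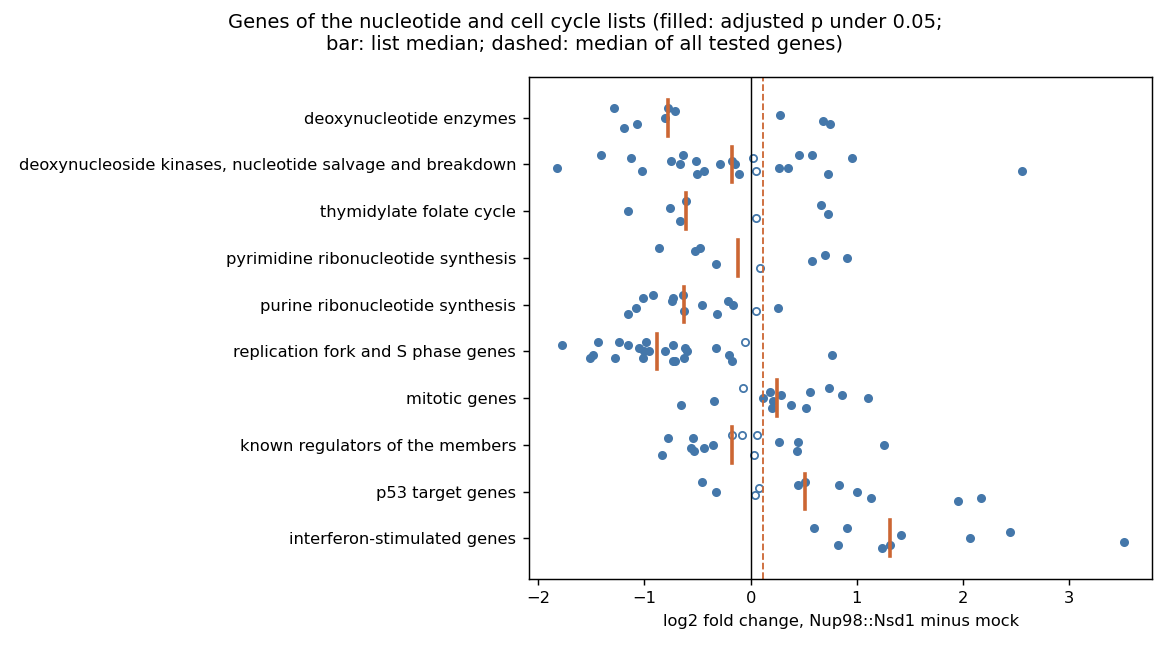
Log2 fold change (Nup98::Nsd1 minus mock) of each tested gene of the 9 members and 9 other lists, filled where the adjusted p was under 0.05. Orange bars are medians of the tested genes, from -0.88 for replication fork and S phase genes to 1.31 for interferon-stimulated genes, 3 of which were tested only through Nup98::Nsd1 arrays, and the dashed line at 0.12 is the median of all tested genes.

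The genes outside all lists with the 6-array profile closest to Rrm2 at its brightest probe set were Cacybp, Bag4 and Idh3a, among 8730 genes Present on all 6 arrays. Likeness was the Euclidean distance between log2 profiles centred on the mock mean, which was 0.0706, 0.0798 and 0.0806. Cacybp, which binds calcyclin, had means of 8582 in mock and 3726 in Nup98::Nsd1 samples. With 2 groups of arrays, such closeness reflects mainly a like difference between the groups.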

How the data were processed

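RNA (100 ng per sample) was labelled and hybridised to 1 array per sample, 3 per group. Per the submitters' processing notes the authors used MAS5, and per the file headers the deposited values are scaled signals, intensities on a linear scale, with a detection call and a detection p-value for each probe set; only the calls were used. Neither the MAS5 version nor the scaling target is stated in those sources; every array had a 2% trimmed mean of 500.003. Symbols came from a 2016 platform annotation, updated through Entrez identifiers with a RefSeq table (GRCm38.p6), which also gave promoter sequences.

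Signals under 1 were set to 1 and log2 taken. The 64 control probe sets were left out. The 20494 probe sets with 3 Present calls in mock or in Nup98::Nsd1 samples were fitted with limma 3.58.1 in R 4.3.3 (moderated test, intensity trend, two-sided, Benjamini-Hochberg over all of them, threshold 0.05). The fit was also run on simulated signals in which a small part of the probe sets had known changes. In these data most tested probe sets were called, a setting that the simulation did not cover. Named beside the members were up to 3 called genes of smallest p in each list, and the 3 profiles nearest to Rrm2. A few others, such as Tk2, Dguok and Ctps, were named outside that rule. Members and lists were chosen with earlier results of these data known. Alternatives were other scalings, pseudocounts of 16 and 64, other filters, the series matrix, variance settings, averaging the probe sets of a gene, a replicate block and leaving out each array.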

Additional observations from a re-analysis of the deposited data

How the results depend on the processing

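Among the 9 genes, the calls of Rrm1, Rrm2, Rrm2b, Tk1, Dck, Dut and Dctd kept their direction and their side of the threshold under all 19 alternatives, with log2 fold changes from -1.61 to -1.06 for Rrm2 and from 0.28 to 0.70 for Rrm2b. Samhd1 turned to -0.12 with hybridization control scaling and did not pass with 75th percentile centring (0.08) or median centring (0.11), and Tyms did not pass with hybridization control scaling (0.35); these 3 settings shift every deposited fold change down by a constant. The count of higher member probe sets, 7 as deposited, was 3 when centred on the 75th percentile, 4 on the median and 2 with hybridization control scaling, and ran from 6 to 8 when single arrays were left out. With hybridization control scaling, 1 member gene and 28 genes of the other lists were higher, against 3 and 45. Counts of lower member probe sets (12) and genes (6) were the same under every alternative that gave one. Of all called probe sets 60.5% were higher as deposited and 49.7% after quantile normalization, against 47.1% and 44.8% when arrays were centred on the median or the 75th percentile and 30.3% on the hybridization controls. The Rrm2 to Rrm2b difference of -1.87 ran from -1.89 to -1.86 without single arrays, was -1.57 after quantile normalization and -2.24 when each gene's probe sets were averaged.

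Same-numbered arrays did not deviate together (r from -0.017 to 0.0212 over tested probe sets), and differently numbered arrays ran from -0.0327 to 0.0452. The main fit used no pairing, but with 3 arrays per group this check cannot exclude one. With the replicate block, 12 member probe sets were lower and 7 higher, and the Rrm2 to Rrm2b difference stayed at -1.87, where the smallest exact p is 0.25. Signal over background limits the dim probe sets of Rrm1, Rrm2b, Tyms and Samhd1.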
